A study of Mus musculus with 3 samples.

Results

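Matricellular proteins are secreted into the extracellular matrix, where they modulate adhesion, proteases and growth factor signals. The genes described here are 10 of the 19938 genes measured: the thrombospondins Thbs1, Thbs2, Thbs3 and Thbs4, the CCN genes Ccn1 and Ccn2, Postn, Tnc, Fn1 and Sparc. They were taken by gene symbol from the platform's probe table, and each was read by 1 probe set. The series title speaks of brown adipocytes made by direct conversion, and 3 mouse samples were hybridised, 1 array each: fibroblasts, cells named DiBA, and a sample named BA. The labels describe the fibroblasts and DiBA as cultivated cells and give no strain, age, passage or conversion factors. For BA they name brown adipose tissue as the source but use the same word for cultivated cells in its description, so tissue and culture cannot be told apart for that sample.

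As background, thrombospondins, CCN proteins, tenascins, periostin and SPARC are made by mesenchymal cells during wound repair and tissue growth, and fibronectin, encoded by Fn1, is the adhesive glycoprotein to which many of them bind. Their genes are known targets of TGF-beta signalling and of mechanosensitive transcription, in which YAP and TAZ act with TEAD factors and MRTF acts with SRF. Fibroblasts on stiff culture surfaces spread and pull on their matrix, whereas adipocytes are rounded and surrounded by a basement membrane. In bulk RNA, fewer cells that express a gene and less of its RNA per cell cannot be told apart.

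Promoter sequence from RefSeq (GRCm38.p6) was found for 7 of the 10 genes, all but Thbs1, Ccn2 and Fn1. In the 250 bases before the start site, the TEAD core motif GGAATG, searched on both strands with overlaps allowed, occurred in Ccn1 and Thbs4. The same window held it in 12.6% of all 32851 promoter entries. The SRF motif known as the CArG box, searched on both strands, was found in 0 of the 7 genes and in 1.47% of all entries. TATAAA on the sense strand lay 25 bases before the start site in Ccn1. It also occurred in both Tnc entries and in the Postn entry that does not lie at the start of the gene. Counted per gene, 3 of the 7 held TATAAA, while the share over all promoters, 7.59%, is counted per entry. The windows of Ccn1 and Thbs4 are shown because they hold the TEAD core, and that of Sparc because its differences from fibroblasts lay at the limit used for calls. Each runs 5′ to 3′ along the gene, with GGAATG (read as CATTCC on the other strand) and TATAAA in capitals. A match describes the letters only.
Ccn1, chr3:145649986-145650235, minus strand: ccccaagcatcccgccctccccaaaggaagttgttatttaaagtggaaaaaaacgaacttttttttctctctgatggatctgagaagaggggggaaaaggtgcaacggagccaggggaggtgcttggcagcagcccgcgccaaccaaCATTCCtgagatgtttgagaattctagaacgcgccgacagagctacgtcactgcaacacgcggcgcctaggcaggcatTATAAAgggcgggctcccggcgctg
Thbs4, chr13:92794819-92795068, minus strand: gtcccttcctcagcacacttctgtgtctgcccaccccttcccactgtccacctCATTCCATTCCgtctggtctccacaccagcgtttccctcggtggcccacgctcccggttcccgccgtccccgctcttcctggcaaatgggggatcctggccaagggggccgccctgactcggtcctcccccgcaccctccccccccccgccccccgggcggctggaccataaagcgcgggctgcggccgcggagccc
Sparc, chr11:55420081-55420330, minus strand: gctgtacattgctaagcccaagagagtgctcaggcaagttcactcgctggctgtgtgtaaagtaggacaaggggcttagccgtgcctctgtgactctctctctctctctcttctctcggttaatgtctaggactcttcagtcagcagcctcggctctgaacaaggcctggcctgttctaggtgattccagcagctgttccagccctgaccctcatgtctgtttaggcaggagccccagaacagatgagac

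Values are intensities of 1 probe set on 1 array, and differences are of log2(intensity + 1), a scale that compresses the differences of dim genes. Calls of higher or lower required a log2 difference of 1, which is 2-fold, with at least 69.2, the median over all probe sets, on the brighter array. With 1 array per group no test can be made, no difference has a replicate check, and the number of arrays limits the precision. The median intensities of the arrays lay between 67.7 and 71.5. All 10 genes passed this level in each comparison, and 9 lay above it on all 3 arrays, the exception being Thbs1 in BA. Of all probe sets, 33.4% carried identical values on all 3 arrays, but 0 of the 10 genes shared a value between any arrays.

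Marker genes fitted the labels in part. Their counts are to be read beside the shares over all genes that passed the level filter. In DiBA 14.7% of those were higher and 13.2% lower than in fibroblasts, and in BA 16.3% and 16.4%. Between DiBA and BA, 1.75% were higher in DiBA and 0% lower. All 12 brown adipocyte markers were at least 2-fold higher in DiBA and in BA than in fibroblasts, with summed intensities of 563 in fibroblasts, 44901 in DiBA and 46153 in BA. Under alternative settings, the number higher ranged from 10 to 12 in DiBA and from 9 to 12 in BA. Of 11 fibroblast markers measured, 5 were lower in DiBA and 6 in BA, while the proteoglycan genes Dcn and Lum were higher in both (1 of them in DiBA with centred arrays), and the summed intensity was 14008, 9770 and 9463 in the same order. In DiBA as in BA, 6 of 11 skeletal muscle and tendon markers were higher than in fibroblasts and 5 lower (1 lower with low intensities raised to 69.2). Their sums were 2393, 11497 and 12969. The 6 higher ones were the skeletal muscle genes Ckm, Acta1, Myh4, Tnnt3, Tnni2 and Pvalb. The 5 lower ones were the tendon genes Tnmd, Scx and Mkx and the muscle regulators Myod1 and Myog. Pvalb measured 42.7 in fibroblasts, 1841 in DiBA and 2140 in BA, and Myh4 41.2, 1142 and 1295. Of the 11, 0 were called between DiBA and BA. Of 12 endothelial markers, 9 were higher in DiBA and 11 in BA (sums of 1337, 3917 and 4631), and of 13 macrophage markers 11 and 10 (sums of 1469, 5129 and 5079). With the 75th percentile as level filter, 7 macrophage markers were higher in DiBA and 6 in BA, and 7 endothelial markers in each. The endothelial count in DiBA was also 7 with centred arrays or a pseudocount of 16. No marker was listed at 0. The part of these other cell types in the values below was not tested.

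The fibroblasts had the highest intensity for each of the 10 genes. Against them, 8 of the 10 genes were at least 2-fold lower in DiBA and 0 were higher, where 13.2% of the 11621 genes that passed the level filter were called lower and 14.7% higher. In BA 9 were lower and 0 higher, against 16.4% of 11663 genes lower and 16.3% higher. The median difference over the 10 genes was -2.59 (log2) in DiBA and -3.47 in BA, and over all genes that passed the filter it was 0 in both. The shares and medians over all genes include genes with identical values on the arrays compared. Such genes cannot be called, and the 10 genes hold none of them. Both comparisons use the same fibroblast array. The 10 genes were chosen with earlier results of these data known, so their counts are a description and no test against those shares. The same holds for the marker lists above and the gene lists below, whose counts are to be read beside the same shares. Fold differences in DiBA ran from 1.82 for Thbs3 to 28.4 for Ccn2, so the genes did not share 1 fold.

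**Figure D1:**
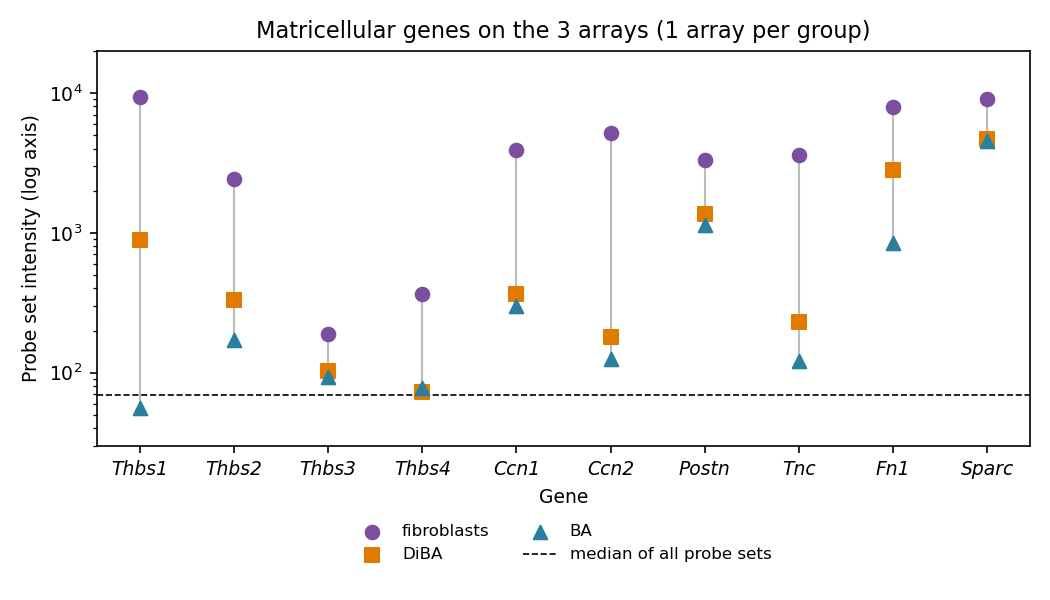
Probe set intensity (log axis) of the 10 matricellular genes in fibroblasts (circles), DiBA (squares) and BA (triangles), 1 array per group, so there are no error bars; the dashed line is the median of all probe sets, 69.2. Fibroblasts are highest for each gene, and Thbs1 in BA, at 55.5, is the 1 point under the line.

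Among the thrombospondins, Thbs1, whose product activates latent TGF-beta and binds the receptors CD36 and CD47, had intensities of 9341 in fibroblasts, 881 in DiBA and 55.5 in BA. Like Fn1, and unlike the other 8 genes, it differed at least 2-fold in all 3 comparisons. It was 10.6-fold lower in DiBA than in fibroblasts, 165-fold lower in BA, and 15.6-fold higher in DiBA than in BA. The BA value lay under 69.2, where background may set much of an intensity, although background was not measured. With low intensities raised to 69.2, the log2 difference of BA from fibroblasts was -7.06 in place of -7.37. That of DiBA from BA was 3.65 in place of 3.96. Thbs2, the closest relative of Thbs1, which restrains vessel growth, measured 2408 in fibroblasts, 333 in DiBA and 171 in BA. It was 7.22-fold lower in DiBA and 14.0-fold lower in BA, and the 1.94-fold gap between DiBA and BA fell short of 2-fold.

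Thbs3 and Thbs4 belong to the other structural subgroup of the family, which forms larger assemblies and lacks some of the domains of Thbs1 and Thbs2. Thbs4, a gene of tendon and muscle matrix, measured 367 in fibroblasts, 72.8 in DiBA and 77.2 in BA, 4.99-fold and 4.71-fold lower, and it was the 1 gene of the 10 with a lower value in DiBA than in BA. Those values in DiBA and BA lay close to 69.2. Thbs3 measured 188, 103 and 93.8, a difference of -0.87 (log2) in DiBA and -0.99 in BA, both just inside the 2-fold limit. Comp, the remaining gene of the family, which encodes a cartilage and tendon protein, measured 52.9, 96.8 and 53.7 and was called in no comparison. Of the 5 thrombospondin genes, 3 were thus called lower in DiBA and in BA than in fibroblasts, and 1, Thbs1, was called between DiBA and BA.

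Ccn1 and Ccn2 had large differences from fibroblasts and differences under 2-fold between DiBA and BA. Ccn2, formerly Ctgf, an integrin and growth factor binding protein linked to fibrosis, measured 5128 in fibroblasts, 179 in DiBA and 126 in BA. It was 28.4-fold lower in DiBA and 40.3-fold lower in BA, and 1.42-fold apart between them. Ccn1, formerly Cyr61, an early response gene whose product supports adhesion through integrins, measured 3926, 367 and 298, which is 10.7-fold and 13.1-fold lower. DiBA and BA were 1.23-fold apart for Ccn1. The rest of the family was read from a fixed list and is given whole: Ccn4 (formerly Wisp1) measured 1009, 72.8 and 41.2, Ccn5 651, 210 and 133, and Ccn3 (formerly Nov) 705, 206 and 58.9. All 3 were lower than in fibroblasts in both DiBA and BA, and Ccn3 was also 1.79 (log2) higher in DiBA than in BA, although its BA value lay under 69.2. Ccn6 had the same intensity of 35.4 on all 3 arrays, below the level filter. Of the 6 CCN genes, 5 were thus at least 2-fold lower in DiBA and in BA than in fibroblasts.

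Tnc encodes tenascin C, a glycoprotein deposited at wounds and growing tissue edges. Its intensity was 3620 in fibroblasts, 230 in DiBA and 122 in BA, so that it was 15.7-fold lower in DiBA and 29.4-fold lower in BA, and 1.88-fold higher in DiBA than in BA. The other tenascin genes were not called lower. Tnxb, which encodes a collagen-associated tenascin of connective tissue, measured 53.3 in fibroblasts, 243 in DiBA and 313 in BA, 2.17 and 2.53 (log2) higher than in fibroblasts. Tnn, at 55.5, 39.0 and 31.7, lay under 69.2 on all 3 arrays, and Tnr, a tenascin of the nervous system, had 26.4 on each.

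Postn and Sparc had smaller differences. Postn encodes periostin, which binds collagen and integrins. It measured 3337 in fibroblasts, 1352 in DiBA and 1127 in BA, 2.47-fold and 2.96-fold lower. Sparc encodes a calcium and collagen binding protein of basement membranes and measured 9103, 4655 and 4536. It was 1.96-fold lower in DiBA and 2.01-fold lower in BA, on either side of the 2-fold limit, so that Sparc was called lower in BA only. That call was lost with quantile normalization, at a log2 difference of -0.98, and the DiBA value passed the limit when arrays were centred on their medians, at -1.04. DiBA and BA were 1.03-fold apart for Sparc and 1.20-fold for Postn.

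Relatives of Sparc went in opposite directions. Sparcl1, which encodes hevin, measured 426 in fibroblasts, 1955 in DiBA and 2203 in BA, and Smoc1, a calcium-binding matrix protein gene, measured 131, 594 and 675. Sparcl1 was 2.20 (log2) higher in DiBA and 2.37 in BA, and Smoc1 2.17 and 2.35. Fstl1, a follistatin-like relative, measured 3920, 1128 and 495, lower in both, and 1.19 (log2) higher in DiBA than in BA. Smoc2 was called in no comparison, and neither were Spock1, Spock2 and Spock3, all under 69.2 on the 3 arrays.

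Fn1 measured 7920 in fibroblasts, 2799 in DiBA and 850 in BA. Fibronectin links cells to the matrix through integrins, above all the receptor formed by the Itga5 and Itgb1 products. Fn1 was 2.83-fold lower in DiBA and 9.31-fold lower in BA than in fibroblasts, and 3.29-fold higher in DiBA than in BA. Itga5 had the same order, with 1263 in fibroblasts, 316 in DiBA and 91.4 in BA, and it was 1.78 (log2) higher in DiBA than in BA. Itgb1 measured 2696, 950 and 794, with DiBA and BA 0.26 (log2) apart.

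**Figure D2:**
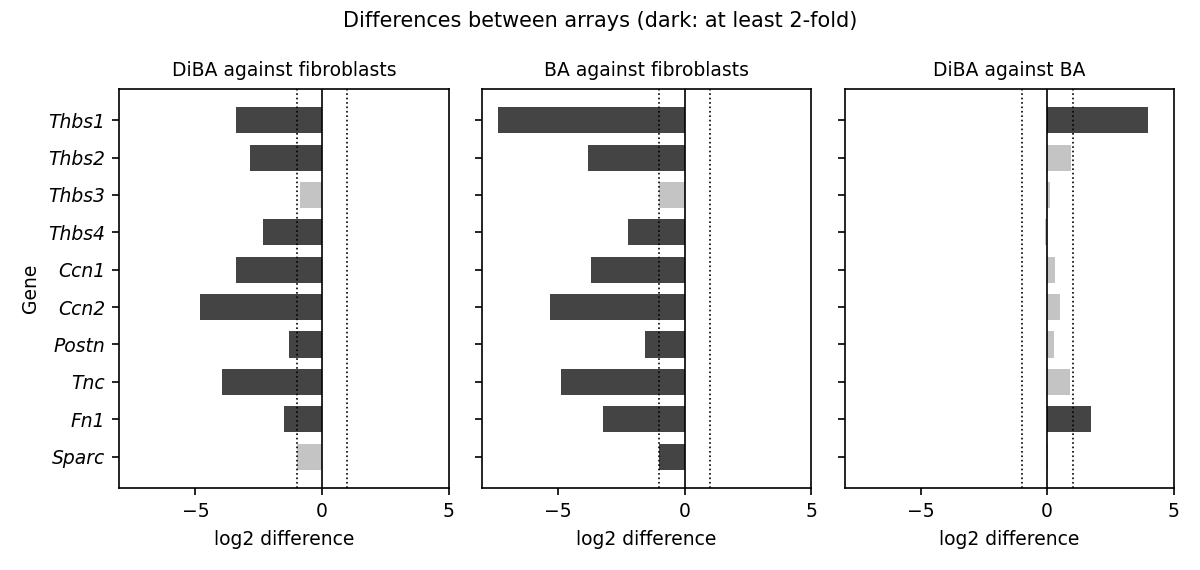
Differences of log2(intensity + 1) of the 10 genes in the 3 comparisons, with dark bars for differences of at least 2-fold and dotted lines at -1 and 1; 1 array per group, no error bars. In DiBA 8 bars and in BA 9 bars are dark and point to lower values than in fibroblasts, while between DiBA and BA only Thbs1 (3.96) and Fn1 (1.72) are dark.

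Between DiBA and BA, Thbs1 and Fn1 were called higher in DiBA, 2 of the 10 genes, and 0 were called lower. Over the 11076 genes that passed the filter, 1.75% were called higher and 0% lower. The median over the 10 genes was 0.40 (log2), against 0 over all genes that passed, and 47.3% of all probe sets carried identical values on DiBA and BA. Thbs2 at 0.96 and Tnc at 0.91 lay just under the limit, and Ccn2 at 0.50, Ccn1 at 0.30, Postn at 0.26 and Thbs3 at 0.13 were further from it. Sparc at 0.04 and Thbs4 at -0.08 had nearly equal values in both.

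A log2 difference between DiBA and BA depends strongly on how low BA is, so the intensities were also placed on a linear scale on which BA is 0% and fibroblasts are 100%. This was done for the 9 genes called lower in BA than in fibroblasts. On that scale DiBA lay at 27.6% for Fn1, 10.2% for Postn, 8.89% for Thbs1 and 7.23% for Thbs2. Tnc lay at 3.10%, Sparc at 2.59%, Ccn1 at 1.90%, Ccn2 at 1.06% and Thbs4 at -1.50%. The median of the 9 was 3.10%. All 1913 genes that were lower in BA had a median of 10.2%, with quartiles of 3.87% and 17.5%. Thbs1, with the largest fold between DiBA and BA among the 10, therefore lay below the median of those genes. Fn1 lay further towards fibroblasts than 89.7% of them, and Ccn1 and Ccn2 lay further than 18.8% and 16.4%. Genes higher in BA than in fibroblasts, 1897 in all, had a median of 16.3%, with quartiles of 9.88% and 23.0%. These positions are a description of 3 arrays without error.

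**Figure D3:**
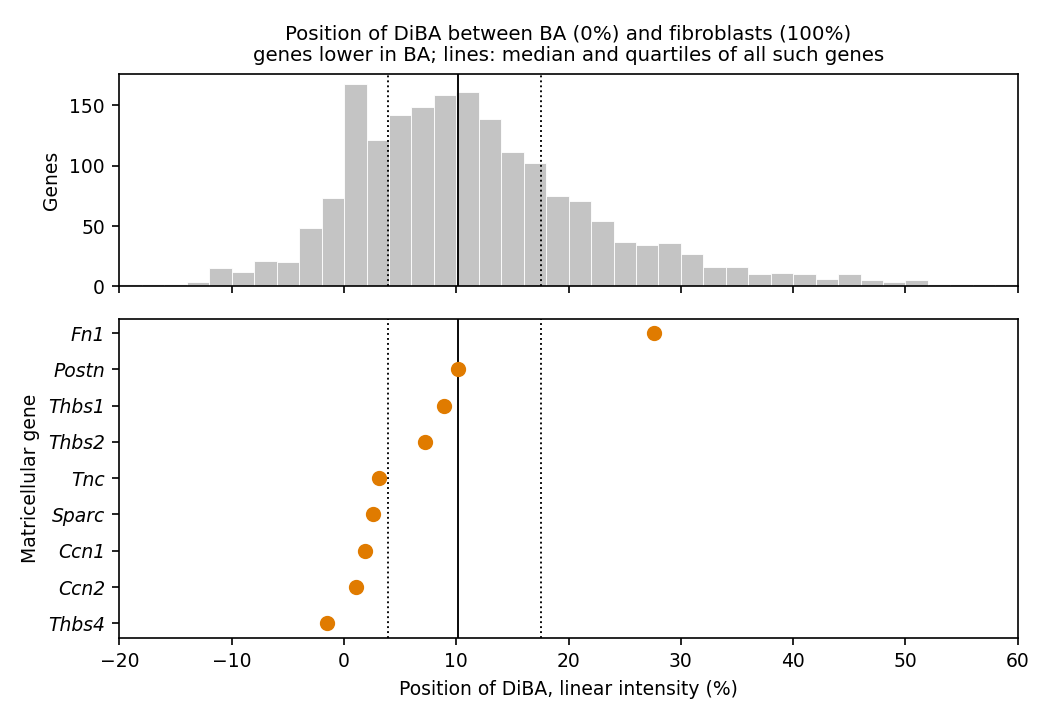
Position of DiBA between BA (0%) and fibroblasts (100%) on the linear intensity scale, as a histogram of the 1913 genes at least 2-fold lower in BA than in fibroblasts (27 lie outside the plotted range) and as points for the 9 matricellular genes among them; lines mark the median (10.2%) and quartiles of all 1913. Fn1, at 27.6%, is the 1 matricellular gene beyond the upper quartile, and 5 lie under the lower one.

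The genes with the most similar pattern, by Euclidean distance of the log2 differences of DiBA and BA from fibroblasts over the 3 arrays, were read for the same 9 genes. Thbs1 had no close neighbour: the nearest were Crabp1 at a distance of 1.64, Igf2 at 1.64 and Slit2 at 1.85. Its difference in BA, -7.37 (log2), was the lowest of all genes and rests on a BA value under 69.2. Large distances follow in part from that extreme value. Ccn2 lay nearest to Inhba, which encodes an activin subunit, at 0.26, Cd109 at 0.30 and Tnmd at 0.47. Tnc lay nearest to Tenm3 at 0.21, Peg3 at 0.31 and Ccn4 at 0.36. Fn1 lay nearest to the AP-1 gene Fosl1 at 0.09, Ptx3 at 0.14 and Dctd at 0.17. Ccn1 lay within 0.14 of Kdelr3, Nuak1 and Slc38a1, and Thbs2 within 0.09 of Rai14, Prss35 and Hmmr. Thbs4 lay within 0.12 of Fdps, Map3k7cl and Loxl4. Postn and Sparc, with small differences shared by many genes, had neighbours within 0.03, namely Nsl1, Ccne1 and Atp11a for Postn and Trmt112, Rbm45 and Yipf5 for Sparc. Some of these neighbours, such as Prss35 and Hmmr, lay under 69.2 in DiBA and BA.

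Receptors and clearance proteins that bind these products were mixed. Of 20 genes measured, 7 were at least 2-fold lower and 3 higher in DiBA than in fibroblasts, and 12 lower and 3 higher in BA, with medians of -0.68 and -1.12 (log2). Cd36, which encodes a thrombospondin receptor that also takes up fatty acids in adipocytes, had intensities of 117 in fibroblasts, 6105 in DiBA and 6500 in BA, a difference of 5.69 (log2) in DiBA. Ptprz1, a phosphatase receptor that binds tenascins, measured 287, 13.5 and 22.1, a difference of -4.31 that became -2.04 with low intensities raised to 69.2. The integrin genes Itga11 and Itga8 lay at -2.92 and -2.87, and at -2.92 and -2.82 with that floor. Cd47, the other thrombospondin receptor gene, had 873 in fibroblasts and DiBA and 856 in BA. The value in fibroblasts and DiBA was exactly the same. Such ties were common in the deposited values, so an unchanged level cannot be read from it. Cd36 was thus highest, and Thbs1 lowest, in BA. Itga5, at 1.78, was the 1 receptor gene called higher in DiBA against BA, with Itga3 and Itgav next at 0.74 and 0.73.

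In the TGF-beta pathway, 6 of 16 genes measured were at least 2-fold lower and 1 was higher in DiBA than in fibroblasts, and 7 were lower and 1 higher in BA, with medians of -0.71 and -0.92 (log2). The ligand gene Tgfb3 had 2116 in fibroblasts, 165 in DiBA and 125 in BA, a difference of -3.68 in DiBA. Tgfb2 had 1007, 165 and 78.4, at -2.60. Ltbp1, whose product stores latent TGF-beta in the matrix, lay at -2.27, and Smad7, an inhibitor induced by the pathway, at -1.93. Tgfb1 differed by -0.44, and Smad2, Smad3 and Smad4 by -0.56 to -0.37. Tgfbr3, a co-receptor gene, was the higher one, at 1.31. Between DiBA and BA, Tgfb2 passed 2-fold narrowly, at 1.06, a call lost with centred arrays, with a pseudocount of 16 or with the 75th percentile as level filter.

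Regulators and targets of YAP, TEAD and SRF were lower in DiBA than in fibroblasts for 19 of 27 genes and higher for 0, with a median of -1.50 (log2). Over all genes that passed the filter, 13.2% were lower and 14.7% higher. In BA the counts were 20 lower and 0 higher, against 16.4% and 16.3% of all genes, and the median was -1.69. The list mixes activators with Lats1 and Lats2, whose products restrain YAP, and with smooth muscle genes. Its counts therefore do not measure the activity of 1 pathway. The largest differences in DiBA were those of Tagln at -4.46, Ankrd1 at -4.17, Cnn1 at -3.99 and Acta2 at -3.63, which encode a smooth muscle actin binding protein, a YAP-responsive ankyrin repeat protein, calponin and smooth muscle actin. Ankrd1 measured 411 in fibroblasts, 21.9 in DiBA and 28.4 in BA, and with low intensities raised to 69.2 its difference in DiBA was -2.56, behind those of Tagln, Cnn1, Acta2 and Vgll3. Tead1, a DNA-binding partner of YAP, measured 2095, 496 and 339, while Yap1 itself, at 737, 422 and 391, differed by -0.80 in DiBA, within 2-fold. Fosl1 at 1.71 and Vgll3 at 1.41 were higher in DiBA than in BA, and with the 75th percentile as level filter 0 of the 27 were. The smooth muscle and pericyte markers, which share Acta2 and Cnn1 with this list, had 5 of 12 genes lower and 3 higher in DiBA. Their summed intensities were 11206 in fibroblasts, 4351 in DiBA and 4783 in BA.

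In a list of proteases, crosslinking enzymes and matrix partners of matricellular proteins, 10 of 15 genes measured were lower and 2 higher in DiBA than in fibroblasts. In BA 11 were lower and 1 higher. The list also holds the collagen chain genes Col1a1, Col1a2, Col3a1 and Col5a1 and the sulfatase gene Sulf1, whose products neither cut nor crosslink. Of these, Col1a1, Col1a2, Col5a1 and Sulf1 were among the 10 lower in DiBA. The medians were -1.48 and -2.01 (log2). Lox, a collagen crosslinking enzyme gene, had 6467 in fibroblasts, 1033 in DiBA and 179 in BA, and was 2.52 (log2) higher in DiBA than in BA. Adamts1, a protease gene whose product cuts thrombospondins, had 982, 303 and 126 and was 1.26 higher in DiBA than in BA. Sulf1, Col1a1 and Mmp14 lay at -2.91, -2.48 and -2.34 in DiBA against fibroblasts. Tgm2, which encodes a transglutaminase that crosslinks fibronectin, went the other way, with 130, 617 and 627, a difference of 2.23 in DiBA.

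**Figure D4:**
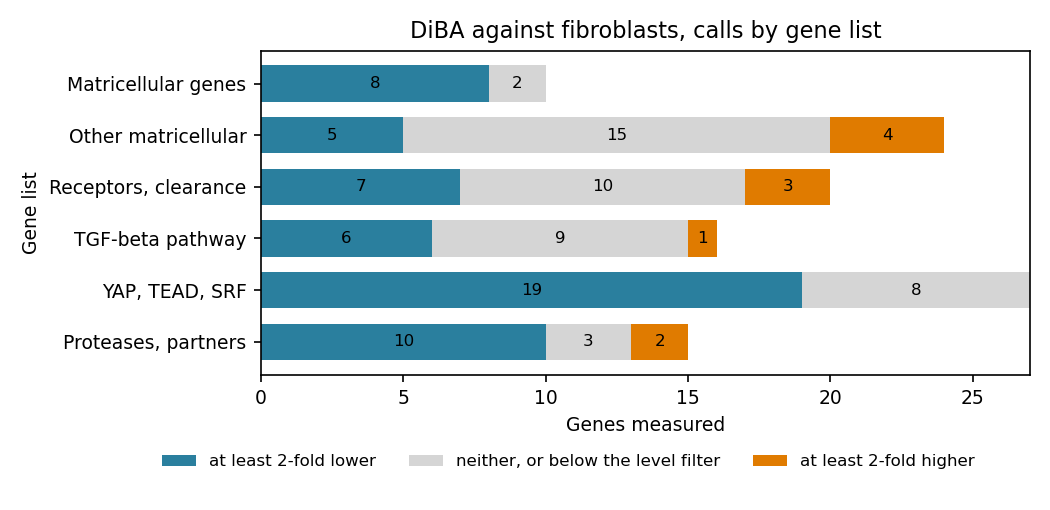
Number of genes at least 2-fold lower, at least 2-fold higher, or neither (which includes genes below the level filter) in DiBA against fibroblasts, for the 10 matricellular genes and 5 related gene lists; 1 array per group. The matricellular genes (8 lower, 0 higher) and the YAP, TEAD and SRF list (19 lower, 0 higher) hold no higher gene, while the other matricellular genes (5 lower, 4 higher, or 2 higher with the 75th percentile as level filter) go both ways. All these genes were chosen with earlier results of these data known.

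The 24 other matricellular and adhesion-modulating genes measured, which include the CCN, tenascin and SPARC relatives above, had 5 lower and 4 higher in DiBA than in fibroblasts, with a median of -0.31 (log2), and 7 lower and 4 higher in BA. With the 75th percentile as level filter, 2 were higher in DiBA. Besides Ccn4 at -3.77, Fbln5, which encodes an elastic fibre protein, lay at -2.92 in DiBA. Lgals3, which encodes the sugar-binding protein galectin 3, measured 829 in fibroblasts, 583 in DiBA and 171 in BA, 1.77 (log2) higher in DiBA than in BA. Platelets carry much thrombospondin, and of 6 platelet and megakaryocyte markers measured 1 was higher in DiBA and 2 in BA than in fibroblasts, with summed intensities of 434, 671 and 818 in fibroblasts, DiBA and BA. Pf4 and Ppbp, chosen after their values were seen, account for most of these differences in sum. The part of platelets in the values of Thbs1 was not tested.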

How the data were processed

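Total RNA of 3 samples was hybridised to single-colour Affymetrix arrays, and the authors deposited an unlogged intensity for each probe set. The submitters' processing notes name Affymetrix Expression Console. How values were summarized and normalized is not given in the sources used here. Of 28943 probe sets, 21789 had 1 symbol in the platform's table, 1621 had several and named no gene, and 5533 were not listed. Log2 values of probe sets were averaged over 19938 genes (Python 3.11.15, pandas 2.3.3, numpy 2.4.6). The level filter was 69.2 and the call 2-fold. The genes named are the 10 genes, their relatives in the same families, all skeletal muscle and tendon markers measured, and the 3 nearest genes in pattern. Added to these are up to 4 genes per list with the largest differences in DiBA against fibroblasts and up to 3 in DiBA against BA that pass the filter. Lats1, Lats2 and the collagen genes are named to show what their lists hold. Some others (Dcn, Lum, Itgb1, Cd47, Tgfb1, the Smad genes, Tgfbr3, Tead1, Yap1 and Tgm2) were chosen after their values were seen. The members and the 12 lists were chosen with earlier results of these data known. Of 184 list genes, 176 were measured, and the others were not analysed here. The code that makes the calls was run on simulated data with planted differences larger than the limit and a chosen noise level. That run checks the code only. It does not measure how reliable the calls are on these arrays, which have no replicates. The alternatives were 7 settings.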

Additional observations from a re-analysis of the deposited data

How the results depend on the processing

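With 1 array per group no replicate could be left out. No paired analysis was possible because each group holds 1 sample. Of 210 differences of the 10 genes recomputed under 7 alternatives, 208 kept their side of the 2-fold limit, and the other 2 were those of Sparc given above. Many of the 208 could not change. Each gene had 1 probe set and passed the level filter, so dropping that filter or taking the highest probe set left all values as they were. The 75th percentile filter could only remove calls, and raising low intensities altered only Thbs1. The count is therefore no measure of robustness. The only difference of the 10 genes to change sign was the uncalled one of Sparc between DiBA and BA, -0.04 (log2) with centred arrays against 0.04. Across the alternatives, lower genes among the 10 numbered 8 to 9 in DiBA and in BA against fibroblasts, and 2 stayed the count higher in DiBA than in BA. The position of DiBA for Sparc became -2.75% with centred arrays, and that of Fn1 ranged from 25.5% to 27.6%. Over all genes, 194 were higher in DiBA than in BA with the median filter and 76 with the 75th percentile filter. Under the other 6 alternatives the count was 137 to 222, and 1 gene was lower without a level filter. The changed filters pass fewer or more genes, whereas the other alternatives change the values that are compared. Values under 69.2, the median of all probe sets, may hold more background, but background was not measured. Among the 10 genes, only Thbs1 in BA lay under it.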
